A study of Mus musculus with 16 samples.

Results

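The genes described here are 9 components and regulators of the complement system, taken by symbol from both expression tables: *C2*, *C3*, *C4b*, *Cfb*, *Cfd*, *Cfi*, *Cd55*, *Cd59a* and *Serping1*, of 22396 gene symbols measured. The question put to them was which follow genes of leukocytes or of stroma from mouse to mouse (*Cd68*, a lysosomal protein of macrophages, and *Col1a1*, a chain of type I collagen made by fibroblasts), and which do not. RNA was sequenced from EpCAM+ cells sorted from the distal colonic mucosa of 16 mice, where EpCAM is a surface protein of epithelial cells. Control mice were Tnfr2-f/f, with a loxP-flanked gene for TNF receptor 2 (*Tnfrsf1b*), and the mice labelled knockout were Vil1::Cre;Tnfr2-f/f, in which Cre driven by the villin promoter cuts the flanked part out of intestinal epithelial cells only. There were 4 controls and 5 mice labelled knockout on water, and 3 controls and 4 mice labelled knockout given dextran sulfate sodium (DSS), which injures the colonic epithelium. By the labels DSS was given at 3% for 6 days and all mice were dissected at day 12; the study's methods give another concentration and call the uninjured mice day 0. By the paper's account the DSS cells came from injured regions of the distal colon. All 7 DSS mice were female, in cages of 2 and 5 mice. The water mice were 4 males in 1 cage and 5 females in another, each with both genotypes, and no cage held both treatments.

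Complement is a chain of plasma and tissue proteins that marks microbes and damaged cells. The classical route starts when C1q binds its target and C1s, a protease bound to it with C1r, cuts C4 and C2. The alternative route is kept going by factor B and factor D. Both routes cut C3, whose fragments coat the target and draw in phagocytes, and a set of inhibitors keeps the chain off host cells. Liver makes most of the plasma proteins, while fibroblasts, macrophages and epithelial cells make some of them locally.

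Of the 9 genes, 4 lie on chromosome 17 (GRCm38, GENCODE M21, all on the minus strand): *C4b* at chr17:34728380-34743882, *Cfb* at chr17:34856374-34862518, *C2* at chr17:34862604-34898265 and *C3* at chr17:57203970-57228136. *C2* ends just before the start of *Cfb* on that strand, and an annotated read-through gene, *Gm20547*, runs over both. *Serping1* (chr2:84765387-84775444, minus strand) and *Cd59a* (chr2:104095801-104115354, plus strand) lie on chromosome 2, *Cfi* (chr3:129835884-129875332, plus strand) on chromosome 3, *Cfd* (chr10:79890853-79892655, plus strand) on chromosome 10 and *Cd55* (chr1:130439027-130462744, minus strand) on chromosome 1. The tables list only the transcripts annotated as principal isoforms, 1 for each of these genes except *Cd59a*, which has 2. A read that fits another isoform equally well is divided among them before that isoform is dropped, so the share of 31-base windows that a listed transcript holds alone among its gene's isoforms bears on its value. That share was 79.8% for *C4b*, 76.6% for *Cfi*, 72.8% for *C3*, 45.5% for *Cd55*, 22.8% for *Serping1*, 8.74% for *Cfd* and 4.40% for *C2*. It was 0% for *Cfb*, whose listed transcript lies whole within the isoform Cfb-202, and at most 2.11% for *Cd59a*. Between genes, 81.9% of the windows of *Cfb* and 59.7% of those of *C2* also occur in *Gm20547*. That gene was listed at 0 to 1.23 TPM (the unit of the tables, a level scaled to transcript length and library). Of the windows of *C4b*, 48.8% occur in its near copy *C4a*. *C4a* was not among the symbols measured, so its level cannot be set beside that of *C4b*.

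For *Cfb* and *Cfd* the listed transcript has a few coding bases at an exon start that a neighbouring isoform lacks. They are shown because *Cfd* was at 0 in all 16 mice and *Cfb* was near 0 in 1 mouse while measured in the others. Further differences between these isoforms were not examined. In *Cfb* the listed form Cfb-201 begins exon 16 of 18 with 4 bases (chr17:34857133-34857136, minus strand) that the isoform Cfb-207 lacks. In *Cfd* the listed form Cfd-201 begins exon 2 of 5 with 3 bases (chr10:79891456-79891458, plus strand) that Cfd-202 lacks. Capitals mark those bases, with 30 bases of the spliced transcript on each side, 5′ to 3′.
Cfb-201: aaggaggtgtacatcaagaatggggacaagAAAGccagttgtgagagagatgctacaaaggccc
Cfb-207: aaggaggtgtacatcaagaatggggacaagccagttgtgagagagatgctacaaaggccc
Cfd-201: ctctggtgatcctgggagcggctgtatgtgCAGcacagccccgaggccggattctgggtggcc
Cfd-202: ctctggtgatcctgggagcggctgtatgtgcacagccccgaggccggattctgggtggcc

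RefSeq promoters (GRCm38.p6) were at hand for 4 of the 9 genes, *C3*, *Cd55*, *Cd59a* and *Cfd*. Of these *C3* and *Cd55* were well measured and varied together between mice, so the 250 bases before their starts are shown, on the strand of the gene. The letters TTNNGNAA, a form bound by C/EBP factors, were searched on both strands and are in capitals. The *C3* promoter (chr17:57228137-57228386, minus strand) held 3 matches, which begin 70, 58 and 45 bases before the start and do not overlap one another. The *Cd55* promoter (chr1:130462745-130462994, minus strand) held none.
C3: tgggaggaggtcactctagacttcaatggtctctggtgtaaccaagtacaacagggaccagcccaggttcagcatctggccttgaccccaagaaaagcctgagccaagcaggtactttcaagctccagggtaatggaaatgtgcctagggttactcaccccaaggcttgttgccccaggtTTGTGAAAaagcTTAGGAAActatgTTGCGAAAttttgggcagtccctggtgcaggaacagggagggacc
Cd55: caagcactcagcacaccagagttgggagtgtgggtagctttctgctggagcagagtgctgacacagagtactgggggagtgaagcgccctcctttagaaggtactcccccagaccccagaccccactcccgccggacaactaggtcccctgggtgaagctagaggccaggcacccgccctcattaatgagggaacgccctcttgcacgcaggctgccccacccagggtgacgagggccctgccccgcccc
At least 1 such match was present in 36.8% of all 32851 RefSeq promoters and at least 3 in 2.61%. A form bound by NF-kB (GGG, then 5 bases of any kind, then CC) had 4 matches in each of the *C3* and *Cd55* promoters, some of which overlap one another. At least 1 match to it was present in 45.8% of all promoters, and the share with 4 or more was not computed. Neither promoter held TTCNNNGAA (a STAT form, in 7.02% of promoters) or CACGTG (an E-box, in 6.02%). These matches are letters in a window and not sites shown to be bound.

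The sort and the labels were checked before the complement genes were read. Values below are TPM summed per gene. *Epcam* stood at 566 to 712 TPM in the water mice and 894 to 1017 TPM in the DSS mice, and all 10 epithelial markers were measured in every group. Non-epithelial RNA was present as well. The 9 myeloid markers summed to 719 to 1757 TPM in the water mice and to 79.6 to 166 TPM in the DSS mice. The 9 stromal markers summed to 266 to 919 TPM on water and 137 to 647 TPM after DSS, and the 10 lymphoid and plasma cell markers summed to 502 to 14310 TPM on water and 10.0 to 464 TPM after DSS, with *Cd2* at 0 in the DSS controls. The 5 endothelial markers summed to 3.99 to 16.4 TPM in all groups. In these bulk samples, fewer cells of a type and less RNA per cell cannot be told apart. The targeted gene *Tnfrsf1b* was at 13.9 ± 2.06 TPM (SD, n = 4) in the water controls and 11.8 ± 2.30 (n = 5) in the water mice labelled knockout, and at 16.5 ± 4.95 (n = 3) and 18.4 ± 6.02 (n = 4) after DSS. Its log2 difference was −0.23 ± 0.16 (SE) on water and 0.14 ± 0.27 after DSS (limma, adjusted p = 0.865 and 1.00), so the RNA does not set the genotypes apart. A gene total does not read the flanked part by itself and is no check of its removal, and the mice are therefore called labelled knockout. Nothing in the labels says more of the replicates than that they are separate mice.

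*C3*, the protein on which all routes meet, was measured in every mouse. It was at 35.8, 31.8, 47.6 and 40.0 TPM in the 4 water controls and at 31.1, 22.5, 25.2, 40.0 and 20.6 TPM in the 5 water mice labelled knockout. After DSS it was at 84.6, 14.1 and 36.6 TPM in the 3 controls and at 27.8, 72.5, 76.2 and 21.8 TPM in the 4 labelled knockouts. The groups overlapped on both treatments. The highest mouse exceeded the lowest 2.31-fold on water and 5.99-fold after DSS, and 3 DSS mice, of both genotypes, were above all 9 water mice while 1 was below them all.

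Of the genes of the classical route, *C4b* was measured in every mouse and *C2* was at the edge of detection. *C4b*, whose product is cut to start the C3 convertase, was at 26.2, 40.4, 56.9 and 39.7 TPM in the water controls and at 35.8, 13.8, 17.3, 34.3 and 16.8 TPM in the water labelled knockouts. After DSS it was at 16.4, 4.41 and 8.66 TPM in control mice and at 5.23, 17.3, 34.1 and 7.04 TPM in labelled knockouts. Of the 7 DSS mice, 4 were below every water mouse and 3 were within their range. *C2*, which supplies the protease of that convertase, was listed at 0 in 5 of 9 water mice and 2 of 7 DSS mice, and its highest value was 1.69 TPM, in a water mouse labelled knockout.

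The genes of the alternative route gave 1 measured gene and 1 at 0. *Cfb*, the protease of the alternative C3 convertase, was at 12.3, 4.59, 28.8 and 20.7 TPM in the water controls and at 19.1, 22.1, 8.39, 13.98 and 14.8 TPM in the water labelled knockouts. After DSS it was at 0.00221, 15.8 and 30.5 TPM in control mice and at 25.7, 12.6, 25.1 and 13.2 TPM in labelled knockouts. Apart from the DSS control near 0, which had the highest *C3* of all mice, the DSS values lay between 12.6 and 30.5 TPM and the water values between 4.59 and 28.8 TPM. Its listed transcript has no window of its own, as given above, and the part of this in the value near 0 was not tested. *Cfd*, the protease that cuts factor B, was listed at 0 in all 16 mice, and that listing covers only the isoform Cfd-201 shown above.

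Of the 4 regulators, *Serping1* and *Cd55* were measured in every mouse and *Cfi* and *Cd59a* were at or below 1.57 TPM. *Serping1*, the C1 inhibitor, had the highest mean level of the 9 genes on water, at 59.5, 106, 88.1 and 90.5 TPM in control mice and 64.4, 26.6, 56.01, 91.4 and 49.2 TPM in labelled knockouts. After DSS it was at 53.7, 11.5 and 20.6 TPM in control mice and 17.2, 50.4, 65.8 and 17.4 TPM in labelled knockouts, with 4 of the 7 below every water mouse.

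*Cd55*, a membrane protein that breaks up C3 convertases, had the narrowest range of the measured members. It was at 38.7, 43.7, 63.0 and 39.2 TPM in the water controls and 33.3, 28.7, 30.8, 45.1 and 31.3 TPM in the water labelled knockouts. After DSS it was at 43.3, 30.5 and 21.7 TPM in control mice and 27.8, 37.2, 43.7 and 24.4 TPM in labelled knockouts. The highest mouse exceeded the lowest 2.19-fold on water and 2.01-fold after DSS. *Cfi*, the protease that inactivates C3b and C4b, was listed at 0 in 8 of 9 water mice and reached 0.688 TPM after DSS. *Cd59a*, which blocks the membrane attack complex, ranged from 0 to 1.49 TPM on water and from 0.110 to 1.57 TPM after DSS. By order of level in the water controls, *Serping1* (86.1 ± 19.5 TPM, SD, n = 4) was followed by *Cd55* (46.2 ± 11.4), *C4b* (40.8 ± 12.5), *C3* (38.8 ± 6.71) and *Cfb* (16.6 ± 10.5), and the middle 3 differed by less than their spreads. In the DSS controls *C3* came highest (45.1 ± 36.0 TPM, n = 3), then *Cd55* (31.8 ± 10.9), *Serping1* (28.6 ± 22.2), *Cfb* (15.4 ± 15.3) and *C4b* (9.83 ± 6.09), and every step was within the spreads.

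**Figure D1:**
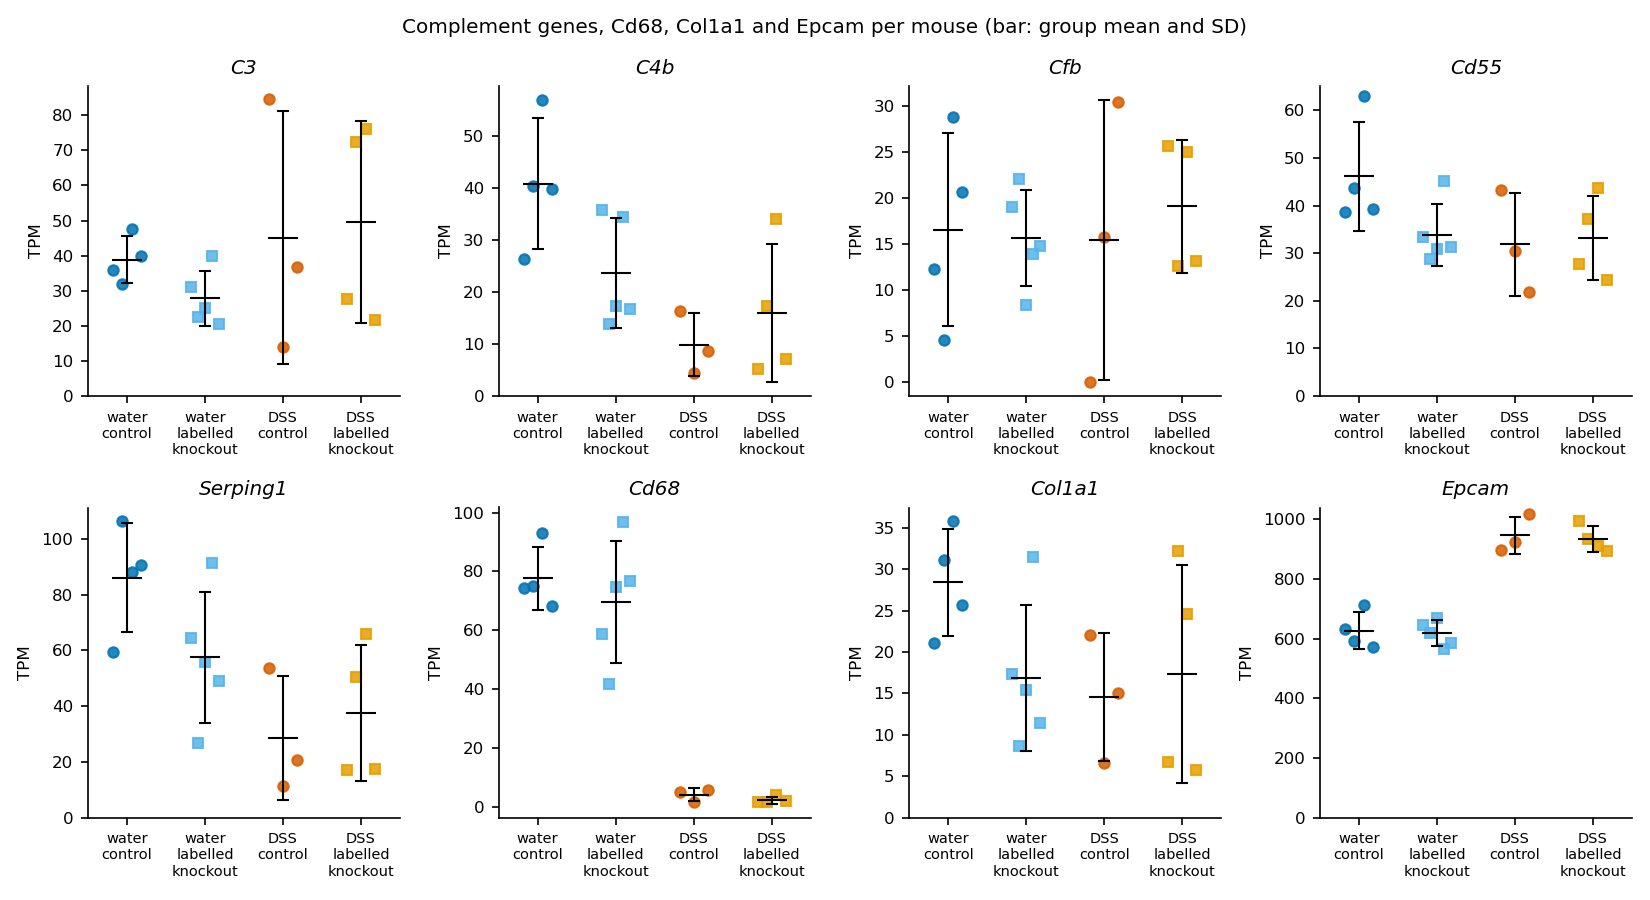
TPM (vertical axis, linear) of the 5 measured complement genes and of *Cd68*, *Col1a1* and *Epcam*, 1 point per mouse (circles, controls; squares, labelled knockout), with bars at the group mean ± SD. *Cd68* stands at 41.7 to 96.9 TPM in the water mice and 1.56 to 5.82 TPM in the DSS mice, while *C3* spans 20.6 to 47.6 TPM on water and 14.1 to 84.6 TPM after DSS, and *C4b* and *Serping1* reach lower after DSS.

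The members were then read against *Cd68* and *Col1a1* across mice, within a table. *Cd68* was at 74.5, 75.01, 92.9 and 68.1 TPM in the water controls, 58.7, 41.7, 74.8, 96.9 and 76.6 TPM in the water labelled knockouts, 5.21, 1.56 and 5.82 TPM in the DSS controls and 1.70, 1.63, 4.00 and 1.87 TPM in the DSS mice labelled knockout. *Col1a1* was at 21.0, 31.1, 35.8 and 25.7 TPM, 17.3, 8.62, 15.5, 31.4 and 11.5 TPM, 21.98, 6.56 and 15.0 TPM, and 6.77, 32.1, 24.6 and 5.77 TPM in the same groups. The 2 anchor genes themselves varied together on water (r = 0.75, exact permutation p = 0.0164, rho = 0.62, exact p = 0.0857) more than after DSS (r = 0.47, exact p = 0.279, rho = 0.18, exact p = 0.713), where *Cd68* was low, and the difference between the treatments was not tested. Before adjustment *C3*, *C4b* and *Serping1* passed with *Col1a1* in both tables, *Cd55* passed on water alone, and *Cfb* passed with neither anchor. All correlations are of log2(TPM + 1), with exact two-sided permutation over all pairings and Benjamini-Hochberg adjustment over all genes in each of the 4 families (2 anchors, 2 tables). All genes of a mouse come from the same library, so they share its cell mixture and its scaling.

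On water, over 9 mice, *Serping1* had r = 0.94 with *Col1a1* (exact p = 0.000201, adjusted p = 0.0704; rho = 0.87, exact p = 0.00451, adjusted p = 0.239). *C4b* had r = 0.91 (exact p = 0.000672, adjusted p = 0.125) and rho = 0.87 (exact p = 0.00451, adjusted p = 0.239). *C3* had r = 0.90 (exact p = 0.00132, adjusted p = 0.146) and rho = 0.90 (exact p = 0.00203, adjusted p = 0.182). *Cd55* had r = 0.90 (exact p = 0.000978, adjusted p = 0.140) and rho = 0.98 (exact p = 4.96e-05, adjusted p = 0.0457). *Cfb* had r = −0.13 (exact p = 0.744, adjusted p = 0.931) and a rho of 0 (exact p = 1, adjusted p = 1). At an adjusted p under 0.05 no member was called by Pearson's r, where 0.145% of 11045 genes were, and 1 of 5 was called by rho (*Cd55*), where 0.109% were. At an unadjusted p under 0.05, 4 of 5 members had a positive r, against 6.29% of all genes, and the median r was 0.90 over the 5 members and −0.02 over all genes. By rho the same 4 were under 0.05, against 5.33% of all genes. Without the 2 mice farthest from the median of *Col1a1*, r was 0.88 for *Serping1*, 0.80 for *C4b*, 0.80 for *C3* and 0.91 for *Cd55*. With both values centred on cage means, which also removes the difference between the sexes, r was 0.96, 0.94, 0.95 and 0.93 in the same order. The mean log2 value of the 9 stromal markers, *Col1a1* among them, gave 0.92, 0.77, 0.74 and 0.83 in place of *Col1a1* alone.

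After DSS, over 7 mice, the order was similar but no gene of the 10898 tested was called (0%). With 7 mice the smallest exact p was 0.000198 for r and 0.000397 for rho. After adjustment over so many genes, a call needs many genes to share that p. The 0% therefore cannot show a weaker association than on water. *C3* had r = 0.93 with *Col1a1* (exact p = 0.0113, adjusted p = 0.706; rho = 0.82, exact p = 0.0341, adjusted p = 0.912). *Serping1* had r = 0.91 (exact p = 0.0196, adjusted p = 0.739) and rho = 0.79 (exact p = 0.0480, adjusted p = 0.912). *C4b* had r = 0.87 (exact p = 0.0181, adjusted p = 0.721) and rho = 0.86 (exact p = 0.0238, adjusted p = 0.868). *Cd55* had r = 0.67 (exact p = 0.115, adjusted p = 0.973) and rho = 0.64 (exact p = 0.139, adjusted p = 0.912). *Cfb* had r = −0.29 (exact p = 0.704, adjusted p = 1) and rho = −0.21 (exact p = 0.662, adjusted p = 0.960). At an unadjusted p under 0.05, 3 of 5 members had a positive r, against 4.39% of all genes, and by rho the same 3, against 3.69%. The mouse DSS control 3 decides those calls of r, since without it 0 of 5 members were under 0.05 while the median r of the members was 0.89. The *Col1a1* values after DSS leave a gap, with 3 mice at 5.77 to 6.77 TPM and 4 at 15.0 to 32.1 TPM, too few on either side for an r of their own. Without the 2 mice farthest from the median, r was 0.90 for *C3*, 0.87 for *Serping1*, 0.84 for *C4b* and 0.63 for *Cd55*, over 5 mice, where the smallest possible exact p is 0.00833 and *Serping1* alone of the 5 had a p under 0.05. Centred on cage means, r was 0.92, 0.91, 0.87 and 0.67. The mean of the 9 stromal markers, *Col1a1* among them, gave 0.93, 0.97, 0.96 and 0.83 in the same order. Their exact permutation p was 0.00913, 0.00238, 0.00198 and 0.0387, with no gene called after adjustment. With that mean *Cfb* had r = −0.33 (exact p = 0.625).

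Against *Cd68* the members stood lower by r than against *Col1a1*. On water r was 0.75 for *Serping1* (exact p = 0.0261, adjusted p = 0.409), 0.70 for *Cd55* (exact p = 0.0404, adjusted p = 0.462), 0.56 for *C3*, 0.54 for *C4b* and −0.19 for *Cfb*. The rho values were 0.43, 0.65, 0.33, 0.32 and −0.22 in that order, with exact p of 0.0666 or more, so by rho 0 of 5 were under 0.05, against 3.45% of genes. No member and none of all genes (0%) was called, and 2 of 5 members were positive at an unadjusted p under 0.05, against 6.27% of all genes. Without the 2 mice farthest from the median of *Cd68* no member was under 0.05, with r of 0.17 for *Serping1* and 0.67 for *Cd55* (exact p = 0.737 and 0.127). Leaving out water control 3 or labelled knockout 2 or 4 also left 0 of 5, and leaving out labelled knockout 5 gave 3. After DSS r with *Cd68* was 0.53 for *C3*, 0.48 for *C4b*, 0.45 for *Serping1*, 0.14 for *Cd55* and −0.30 for *Cfb*, with exact p of 0.200 or more, rho between −0.11 and 0.57, and 0 of 5 members under 0.05 against 2.88% of genes with a positive r and 2.27% with a positive rho. In the DSS table the mean of the 9 myeloid markers in place of *Cd68* gave r = 0.92 for *C3*, 0.90 for *Serping1*, 0.82 for *C4b* and 0.77 for *Cd55* (exact p = 0.00655, 0.0155, 0.0286 and 0.0504), but that mean also had r = 0.87 with *Col1a1* itself (exact p = 0.0188). In the water table the same list gave 0.01, 0.41, 0.07 and 0.19. All 5 members had a higher r with *Col1a1* than with *Cd68* in both tables, against 5 of 19 other complement genes on water and 7 of 14 after DSS. For *Cfb* both values of r were below 0, at −0.13 and −0.19 on water and −0.29 and −0.30 after DSS. By rho the order of *Cfb* after DSS was the reverse, at 0.21 with *Cd68* and −0.21 with *Col1a1*. The share over all genes was not computed, and whether the 2 values of r of a gene differ was not tested.

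**Figure D2:**
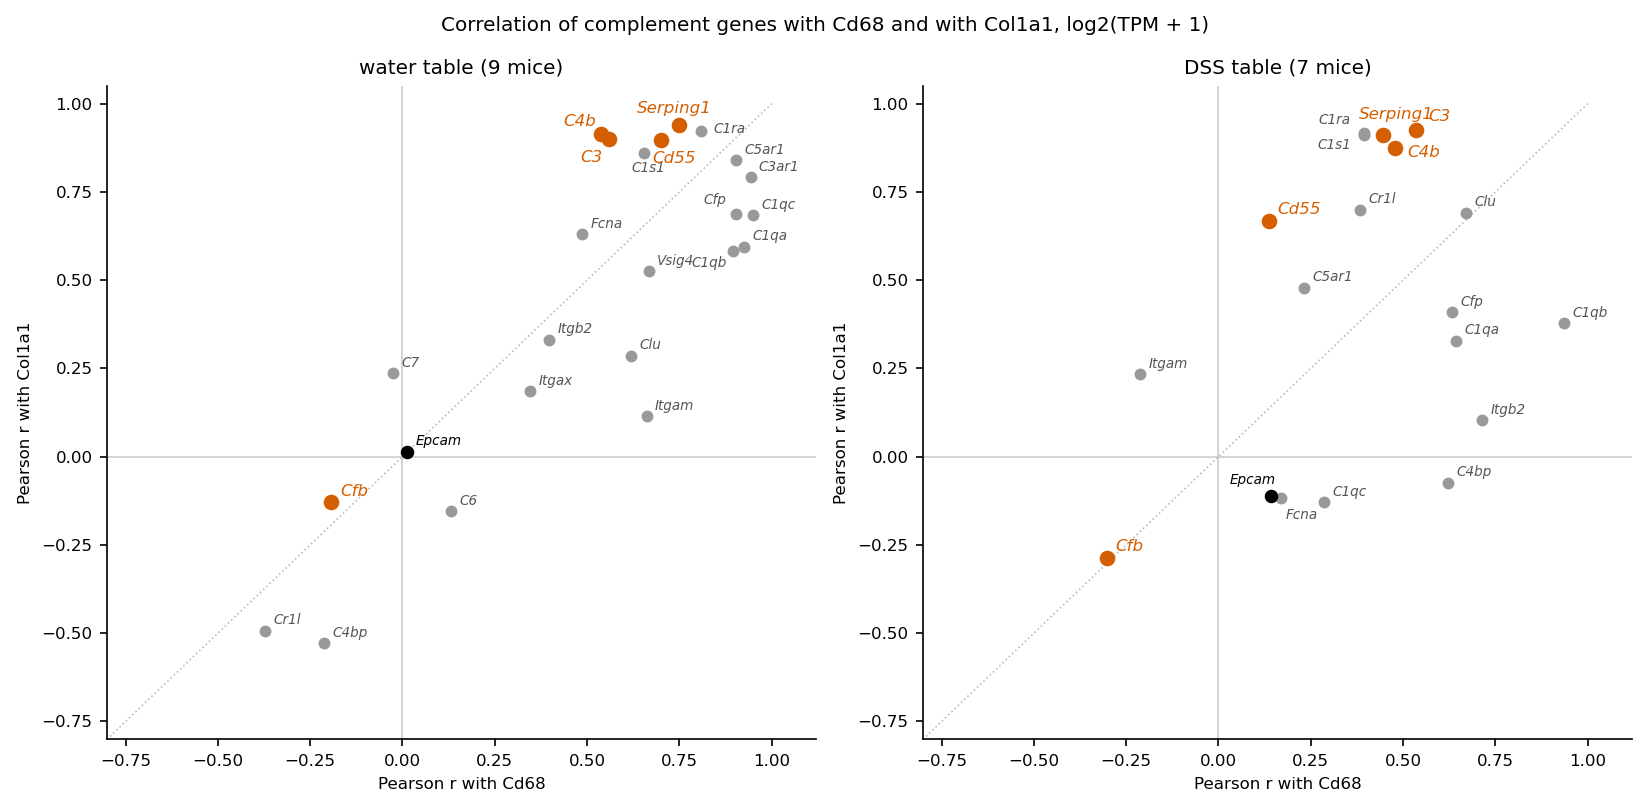
Pearson r with *Cd68* (horizontal) and with *Col1a1* (vertical) across the 9 water mice and the 7 DSS mice for the 5 measured members (orange), further complement genes (grey) and *Epcam* (black), with the dotted line at equal r. *C3*, *C4b* and *Serping1* sit at r of 0.87 to 0.94 on the *Col1a1* axis in both panels beside *C1ra* and *C1s1*, while *C1qa*, *C1qb* and *C1qc* sit at 0.90 to 0.95 on the *Cd68* axis on water and *Cfb* lies below 0 on both axes.

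**Figure D3:**
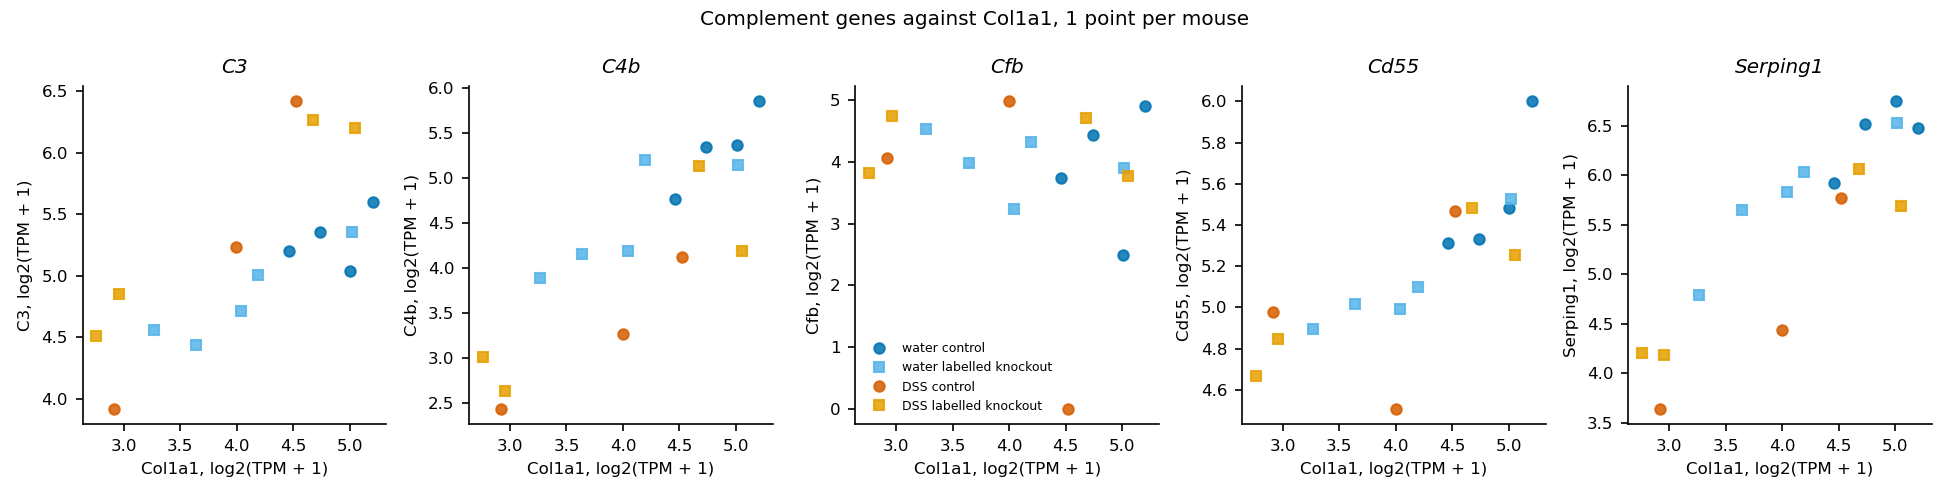
Each measured member against *Col1a1*, both as log2(TPM + 1), 1 point per mouse in all 4 groups (blue, water; orange and yellow, DSS; circles, controls; squares, labelled knockout). On water r is 0.90 to 0.94 for *C3*, *C4b*, *Cd55* and *Serping1*, after DSS it is 0.87 to 0.93 for *C3*, *C4b* and *Serping1* and 0.67 for *Cd55*, and for *Cfb* it is −0.13 and −0.29, with the DSS control at 0.00221 TPM apart from the rest.

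The genes most like each member were named by the Pearson r of log2(TPM + 1) after the group mean was taken away, over 16 mice and about 6219 other genes whose mean reached 5 TPM on both treatments, as a description. For *Serping1* they were *Tnfaip6* (0.97), *Bgn* (0.97, the matrix proteoglycan biglycan) and *Col3a1* (0.97, a collagen chain). For *C4b* they were *Efemp1* (0.95), *Col6a1* (0.94) and *Col6a2* (0.94), a matrix protein and 2 chains of type VI collagen. For *C3* they were *Slc43a3* (0.95), *Mfap4* (0.92) and again *Col6a1* (0.92), and for *Cd55* they included *Nid1* (0.93, the basement membrane protein nidogen) and *Ccl2* (0.89). *Cfb* had a different list of *Lrrc47* (0.90), *Trnau1ap* (0.83) and *Toe1* (0.83). By the same measure *C3*, *C4b* and *Serping1* had r of 0.87 to 0.92 among themselves and 0.88 to 0.92 with *Col1a1*, *Cd55* had 0.69 to 0.75 with them, and *Cfb* had −0.48 to −0.22 with the other 4. With *Epcam* the values were −0.24 to −0.05 for the first 4 members and 0.40 for *Cfb*. All these values of *Cfb*, and its list, include the DSS control at 0.00221 TPM. They were not recomputed without that mouse, so they may lean on it. For *C2* the list was *Adnp2*, *Igkv12-46* and *Sdc4* (0.79 to 0.84), for *Cfi* it was *Vopp1*, *Sult1a1* and *Cavin1* (0.77 to 0.82), and for *Cd59a* it was *Suco*, *Impact* and *Golga4* (0.81 to 0.88), all resting on member values near 1 TPM or lower. *Cfd* does not vary and has none.

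Between treatments the levels are described without a test, because the 2 tables were scaled separately and no cage held both treatments. The DSS cells also came from injured regions, and all DSS mice were female. The part of either in the differences was not tested. As deposited, the median gene was higher after DSS by 0.32 on the log2(TPM + 1) scale in the controls (11247 genes), and this shift is the base for what follows. In the controls the difference, DSS minus water, was −2.06 for *C4b* (4.17-fold lower) and −1.80 for *Serping1* (3.48-fold lower), −0.87 for *Cfb*, −0.55 for *Cd55* and −0.11 for *C3*. With all 16 mice scaled together, the median gene moved to 0.02 and the 5 values to −2.38, −2.14, −1.14, −0.89 and −0.45. With female controls only, 2 of them on water, the values as deposited were −2.08, −2.01, −0.44, −0.42 and −0.007 in that order. Among labelled knockouts the values as deposited were −0.77 for *C4b*, −0.73 for *Serping1*, 0.26 for *Cfb*, −0.04 for *Cd55* and 0.64 for *C3*. A difference of at least 1 downward was reached by 2 of 5 members in the controls, where 8.89% of all genes reached it, and by 0 of 5 among labelled knockouts, where 9.20% did. No member had all 7 DSS mice below all 9 water mice, where 4.16% of genes did, or all above, where 18.9% did. *Cfb* without the DSS control near 0 gave 0.63 in place of −0.87. For *Cd68* the difference was −4.03 in the controls and −4.42 among labelled knockouts, with no overlap of the mice, and for *Col1a1* it was −1.04 and −0.17, with overlap.

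**Figure D4:**
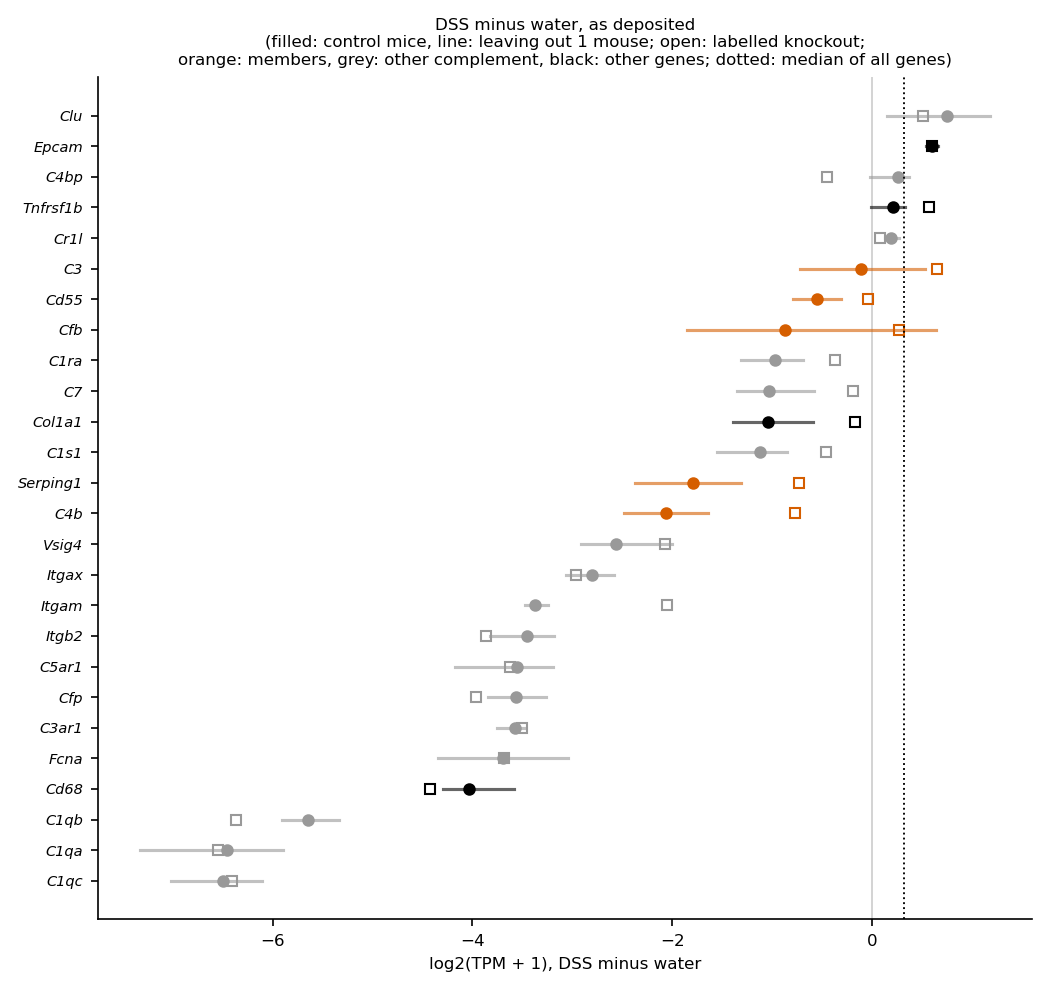
Difference of mean log2(TPM + 1), DSS minus water, as deposited, for the measured members (orange), further complement genes (grey) and *Cd68*, *Col1a1*, *Epcam* and *Tnfrsf1b* (black). Filled circles are the controls with the range on leaving out 1 mouse, open squares the mice labelled knockout, and the dotted line the median of all genes at 0.32; in the controls the members lie between −2.06 and −0.11, *Col1a1* at −1.04 and the C1q genes at −6.50 to −5.65, and in the labelled knockouts the members lie between −0.77 and 0.64.

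The rest of the pathway was read from a list of 42 further complement genes, of which 41 were measured, 16 had a mean of at least 5 TPM in any group, and 7 were at 0 in all mice (*C8a*, *C8b*, *Cfhr2*, *Fcnb*, *Masp2*, *Mbl1* and *Mbl2*). Of 18 whose mean over all mice reached 1 TPM, 14 were lower after DSS by at least 1 in the controls, against 2 of 5 members, and 11 had all DSS mice below all water mice, against 0 of 5 members. The 11 were the C1q chains *C1qa* (191 to 422 TPM on water, 0.761 to 11.7 TPM after DSS), *C1qb* (155 to 350 and 1.29 to 6.48) and *C1qc* (185 to 339 and 0.741 to 5.15); the pattern receptor ficolin A, *Fcna* (24.0 to 78.6 and 0.305 to 6.93); properdin, *Cfp*, which steadies the alternative convertase (23.3 to 57.9 and 0.666 to 4.18); the anaphylatoxin receptors *C3ar1* (4.86 to 19.1 and 0.0473 to 0.626) and *C5ar1* (12.0 to 34.4 and 0.361 to 4.26); and the phagocyte receptors *Itgam*, *Itgax*, *Itgb2* and *Vsig4* (*Itgb2* 15.7 to 37.7 and 0 to 2.83). On water *C1qc*, *C3ar1*, *C1qa*, *Cfp*, *C5ar1* and *C1qb* had r of 0.90 to 0.95 with *Cd68* (exact p of 0.000226 to 0.00295, adjusted p of 0.128 or more) and 0.58 to 0.84 with *Col1a1*. Their rho with *Cd68* was 0.57 to 0.83, and without the 2 farthest mice r was 0.82 for *C1qc* and *C3ar1*, 0.72 for *Cfp*, 0.67 for *C1qa*, 0.55 for *C5ar1* and 0.49 for *C1qb*, with an exact p under 0.05 for the first 2 alone. Against the mean of the 9 myeloid markers their r ran from 0.49 (*Cfp*) and 0.57 (*C5ar1*) to 0.79 (*C1qa*). For the rest of the 11, r with *Cd68* on water was lower. It was 0.67 for *Vsig4*, 0.66 for *Itgam*, 0.49 for *Fcna*, 0.40 for *Itgb2* and 0.35 for *Itgax*. With *Col1a1* it was 0.63 for *Fcna* and 0.11 to 0.52 for the others. After DSS, where *C3ar1* was too low to be tested, r with *Cd68* was 0.94 for *C1qb*, 0.64 for *C1qa*, 0.63 for *Cfp*, 0.29 for *C1qc* and 0.23 for *C5ar1* (exact p = 0.0105, 0.0726, 0.138, 0.548 and 0.702; adjusted p of 0.647 or more). The proteases *C1ra* (9.83 to 25.1 TPM on water, 5.56 to 24.4 after DSS) and *C1s1* (17.0 to 52.3 and 9.27 to 57.4) had r with *Col1a1* of 0.92 and 0.86 on water and 0.92 and 0.91 after DSS, near those of *C3*, *C4b* and *Serping1*. On water their r with *Cd68* was 0.81 and 0.65 (exact p = 0.0108 and 0.0579), and after DSS 0.40 and 0.39. Without the 2 mice farthest from the median of *Col1a1* on water, their r with *Col1a1* was 0.80 and 0.69 (exact p = 0.0373 and 0.0984). *Cr1l* (Crry, a membrane regulator of rodents) was at 29.9 to 40.6 TPM on water and 34.2 to 41.9 TPM after DSS, with r of −0.49 and 0.70 with *Col1a1*. *Clu*, a fluid-phase inhibitor, was at 2.35 to 9.52 TPM on water and 4.61 to 28.0 TPM after DSS.

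Last, limma was used to set the labelled knockouts against the controls of the same treatment, on log2(TPM + 1), for every gene whose mean reached 1 TPM, as it did for 5 of the 9 members in each table. On water *C3*, *C4b* and *Cd55* had a p under 0.05 before, but not after, adjustment, each with a lower mean in the mice labelled knockout. *C4b* was at 40.8 ± 12.5 TPM in 4 controls and 23.6 ± 10.5 TPM in 5 mice labelled knockout, a log2 difference of −0.82 ± 0.33 (SE; limma p = 0.0325, adjusted p = 0.865; exact permutation of the TPM p = 0.0794). *C3* was at 38.8 ± 6.71 and 27.9 ± 7.83 TPM, a difference of −0.49 ± 0.20 (limma p = 0.0368, adjusted p = 0.865; exact p = 0.0635). *Cd55* was at 46.2 ± 11.4 and 33.9 ± 6.51 TPM, a difference of −0.43 ± 0.18 (limma p = 0.0396, adjusted p = 0.865; exact p = 0.0794). *Serping1* was at 86.1 ± 19.5 and 57.5 ± 23.6 TPM, a difference of −0.65 ± 0.32 (limma p = 0.0720, adjusted p = 0.865; exact p = 0.111), and *Cfb* at 16.6 ± 10.5 and 15.7 ± 5.24 TPM, a difference of 0.11 ± 0.46 (adjusted p = 0.974). No member was called, where 0.00905% of 11046 genes were, and 3 of 5 were lower at an unadjusted p under 0.05, where 2.58% of genes were and 5.28% had such a p in either direction. That count of members was 0 without water control 3 or without labelled knockout 2, 3 or 5, 1 without control 2 or 4, and 4 without labelled knockout 4. It was 2 with cage in the fit and 0 with the replicate block. For each member the 2 genotypes overlapped. *Col1a1* differed by as much, at 28.4 ± 6.45 and 16.8 ± 8.82 TPM (−0.82 ± 0.32, limma adjusted p = 0.865, exact permutation p = 0.0952), while *Cd68* differed by −0.20 ± 0.22 and *Epcam* by −0.02 ± 0.10; the part of the stromal RNA in the members' differences was not tested. With cage in the fit the p was 0.0448 for *C4b*, 0.0394 for *Serping1*, 0.0512 for *C3* and 0.0536 for *Cd55*.

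After DSS no member differed between genotypes at a p under 0.05 by these tests, which had 3 against 4 mice. The log2 difference was 0.27 ± 0.66 for *C3*, 0.47 ± 0.65 for *C4b*, 1.24 ± 1.07 for *Cfb*, 0.08 ± 0.28 for *Cd55* and 0.42 ± 0.64 for *Serping1* (limma, adjusted p = 1.00 for each), and 0 of 5 had an unadjusted p under 0.05, where 2.65% of 10899 genes did (1.21% lower) and 0.00918% were called. The exact permutation p of these members was 0.571 or more, and with 3 against 4 mice it cannot fall below 0.0571 when the smaller tail is doubled. The value for *Cfb* turned to −0.26 without the DSS control near 0. The direction on water was thus opposite to that after DSS for 4 of the 5 members, and a fit over all 16 mice, added after these values were seen, tested the difference of the differences. It was 1.29 ± 0.73 for *C4b* (limma), 1.06 ± 0.72 for *Serping1*, 0.75 ± 0.68 for *C3* and 0.50 ± 0.33 for *Cd55*, with an adjusted p of 0.949 for each, and no member was called where 0.00889% of 11247 genes were.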

How the data were processed

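EpCAM+ colonic cells of 16 mice were sequenced by the authors as stranded, polyA-enriched libraries with single reads of 75 bases, quantified with kallisto and tested with sleuth (mm10 by the submitters' processing notes; the transcript release is not given in the sources used here). The authors deposited TPM per principal transcript in 2 tables, 1 per treatment, scaled separately, beside columns of their own genotype test (p-values, q-values and a ratio of means), which were not used. Read depth per mouse is not in TPM, so no counting error is given, and the 3 to 5 mice a group set the precision. Each table had 29373 lines, of which 385 repeated a transcript and were dropped. TPM were summed per symbol. No 2 mice had equal values.

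Genotypes were compared within a table by limma 3.58.1 in R 4.3.3 with the variance trend on log2(TPM + 1), for genes whose mean reached 1 TPM, at a Benjamini-Hochberg adjusted p under 0.05. A fold on this scale understates that of low genes. Correlations used exact permutation (numpy 2.4.6, pandas 2.3.3, scipy 1.17.1, Python 3.11.15; figures, matplotlib 3.10.9). Both tests were tested on simulated data. Members and lists were chosen with earlier results of these data known. The marker means in place of *Cd68* and *Col1a1*, and the fit over all 16 mice, were added after values were seen. The text names the 9 members, *Tnfrsf1b*, *Cd68*, *Col1a1*, *Epcam*, the 3 genes most like each member, other complement genes whose mean reached 5 TPM in any group, and markers at 0; the other complement genes at 0 in all mice were named after their values were seen. Some genes these rules name are not reported here.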

Additional observations from a re-analysis of the deposited data

Results flagged for a closer look

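Single mice were checked within groups of 4 or 5 by the gap to the nearest mouse over the range of the group, for the 5 measured members, *Tnfrsf1b*, *Cd68*, *Col1a1* and *Epcam*, which made 27 groups of values; the 3 DSS controls were too few. Chance alone sets about 1 in 20 such groups apart, and 2 were. *Cd55* in the water mice labelled knockout had 1 mouse at 45.1 TPM against 28.7 to 33.3 TPM in the other 4, a gap of 0.721 of the range. The same mouse had the highest *C3*, *Serping1*, *Cd68* and *Col1a1* of its group. *Cd68* in the DSS mice labelled knockout had 1 mouse at 4.00 TPM against 1.63 to 1.87 TPM in the other 3, a gap of 0.898 of the range, and that mouse had the highest *C3*, *C4b*, *Cd55* and *Serping1* of its group.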

How the results depend on the processing

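Of 650 values recomputed under other settings, 597 were counted as kept, by a rule that differed between results. Correlations needed only the same sign of r, whatever their p. Differences between genotypes needed the same direction and side of the threshold. Counts needed a similar number, and differences between treatments a shift smaller than the spread between mice. The number of genes called between genotypes, 1 in each table, is not stable: on water it was 0 with a pseudocount of 0.1, 4 without the filter and 0 with a mean of at least 5 TPM, and after DSS it was 0 with a pseudocount of 0.1 and 0 without the filter. No member was called under any of these. Same-numbered mice showed little shared deviation (r of deviations −0.08 to 0.09 over 4 pairs on water, −0.20 to −0.03 over 3 pairs after DSS). The control was closest to the labelled knockout of its own number in 2 of 4 pairs on water and 0 of 3 after DSS. So few pairs cannot settle whether the numbers pair mice. With the replicate block 0 genes were called on water and 0 after DSS. Members lower after DSS by at least 1 numbered 0 among labelled knockouts in place of 2 in controls. Members under an unadjusted p of 0.05 with *Cd68* on water numbered 1 when centred on cage means, 0 with the myeloid list and 0 without the 2 farthest mice, in place of 2; with *Cd68* after DSS they numbered 3 with the myeloid list in place of 0, and with *Col1a1* after DSS 1 without the 2 farthest mice in place of 3. The r of *Cfb* with *Cd68* turned to 0.036 when centred on cage means and 0.089 without the 2 farthest mice on water, and 0.55 without them after DSS, and its r with *Col1a1* on water turned to 0.16. The cause was not tested.

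With 1 mouse left out at a time, the genes called between genotypes ranged from 0 to 3 after DSS and from 1 to 2 on water, where an arm then had as few as 2 mice. Members with a p under 0.05 ranged from 0 to 3 with *Cd68* on water and from 0 to 3 with *Col1a1* after DSS. After DSS the log2 difference between genotypes ranged from −0.37 to 0.88 for *C3*, −0.26 to 2.22 for *Cfb*, −0.16 to 0.32 for *Cd55*, −0.072 to 0.99 for *Serping1* and −0.058 to 0.36 for *Tnfrsf1b*, and on water from −0.36 to 0.44 for *Cfb*. The r of *Cfb* ranged from −0.48 to 0.081 with *Cd68* and −0.45 to 0.20 with *Col1a1* on water, and from −0.65 to 0.74 and −0.43 to 0.065 after DSS; that of *Cd55* with *Cd68* after DSS ranged from −0.16 to 0.76. Read depth is unknown, so the members near 0 TPM cannot be told from undetected ones.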
